A study of Mus musculus with 15 samples.

Results

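The 31 genes described here are marker transcripts of brain and vessel cells other than microglia, followed in RNA of sorted microglia. They comprise 8 neuron, 5 oligodendrocyte, 8 astrocyte, 5 endothelial and 4 mural cell markers and 1 red cell marker, out of 30971 genes with a symbol on the array. Members were found by gene symbol alone, and each had exactly 1 transcript cluster, the set of probes that reads a gene. For a gene with several clusters the rule keeps the cluster with the highest mean signal, a choice that no member needed. The same choice was made for the other lists and for shares over all genes. The members were chosen with earlier results of these data known.

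Such transcripts are read in sorted microglia as a gauge of carry-over. When brain tissue is homogenised, neurons, glia and vessels break open, and their RNA can stay in the suspension or cling to the cells that are then sorted. Whole neurons, astrocytes, oligodendrocytes and vessel fragments can also pass a gate in small numbers. Markers of 1 cell type are therefore read as a group. In bulk RNA, fewer cells of a type and less RNA per cell cannot be told apart.

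All mice were C57BL/6 males with floxed *Tgfbr2* alleles (fl/fl) and the *R26-yfp* reporter, injected at 6 to 8 weeks of age at 2 time points 48 h apart and analysed 4 weeks later. The Cre/+ TAM group (6 mice) carried 1 *Cx3cr1CreERT2* allele and received 8 mg tamoxifen, which deletes *Tgfbr2* exons 2 and 3 in cells expressing *Cx3cr1*, a gene of microglia and other macrophages. The wt TAM group (6 mice) lacked Cre and received the same tamoxifen, and the Cre/+ OIL group (3 mice) carried Cre and received corn oil. After removal of the meninges and a Percoll gradient, the labels give a CD11b+/CD45low sort for every group, while the study's text describes a YFP+/CD45low gate for Cre/+ TAM, so the gate may have differed between Cre/+ TAM and the controls. Each mouse gave 1 Affymetrix Mouse Gene 2.0 ST array, and mice are called here by the start of their label (P098_04 to P098_19).

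Values are log2 signals, so that a difference of 1 is a 2-fold change. The microglia list (12 genes) averaged between 9.86 and 10.36 in Cre/+ TAM, between 10.02 and 10.42 in wt TAM and between 10.13 and 10.42 in Cre/+ OIL mice. *Tgfbr2* had a signal of 8.14 ± 0.17 in Cre/+ TAM, 8.12 ± 0.12 in wt TAM (SD, n = 6 each) and 8.25 ± 0.29 in Cre/+ OIL (SD, n = 3). The exons read by its probes were not checked, and the deletion is therefore not tested by it. The animal numbers that end the labels form a lower range (P098_07 and P098_09 in Cre/+ TAM, P098_06, P098_10 and P098_11 in wt TAM, and all 3 Cre/+ OIL mice) and an upper range (4 Cre/+ TAM and 3 wt TAM mice, P098_13 to P098_19). The median of all clusters lay between 4.35 and 4.55 in every array, and it was highest in wt TAM mouse P098_13, which also had the lowest upper quartile (5.75) of the 15 arrays.

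None of the 31 markers was called different between any of the groups at a limma adjusted p under 0.05. Of all 32471 clusters, 0.0246% were called between Cre/+ TAM and wt TAM and 0% in each other comparison. An absence of calls is therefore no trait of the markers. Their signals stood near the middle of the array: 26 of 31 had a mean over 15 mice within 1 log2 unit of the median cluster (4.40), against 40.9% of all clusters. The exceptions were *Nefl* (neurofilament light chain, 2.38) and *Rgs5* (a pericyte signalling regulator, 3.18) below that range, and *Slc1a3* (7.14), *Acta2* (6.36) and *Pecam1* (5.79) above it. Probes differ in affinity, so a signal is no transcript amount, and no detection call was used, so a low signal does not show that a transcript was absent.

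**Figure D1:**
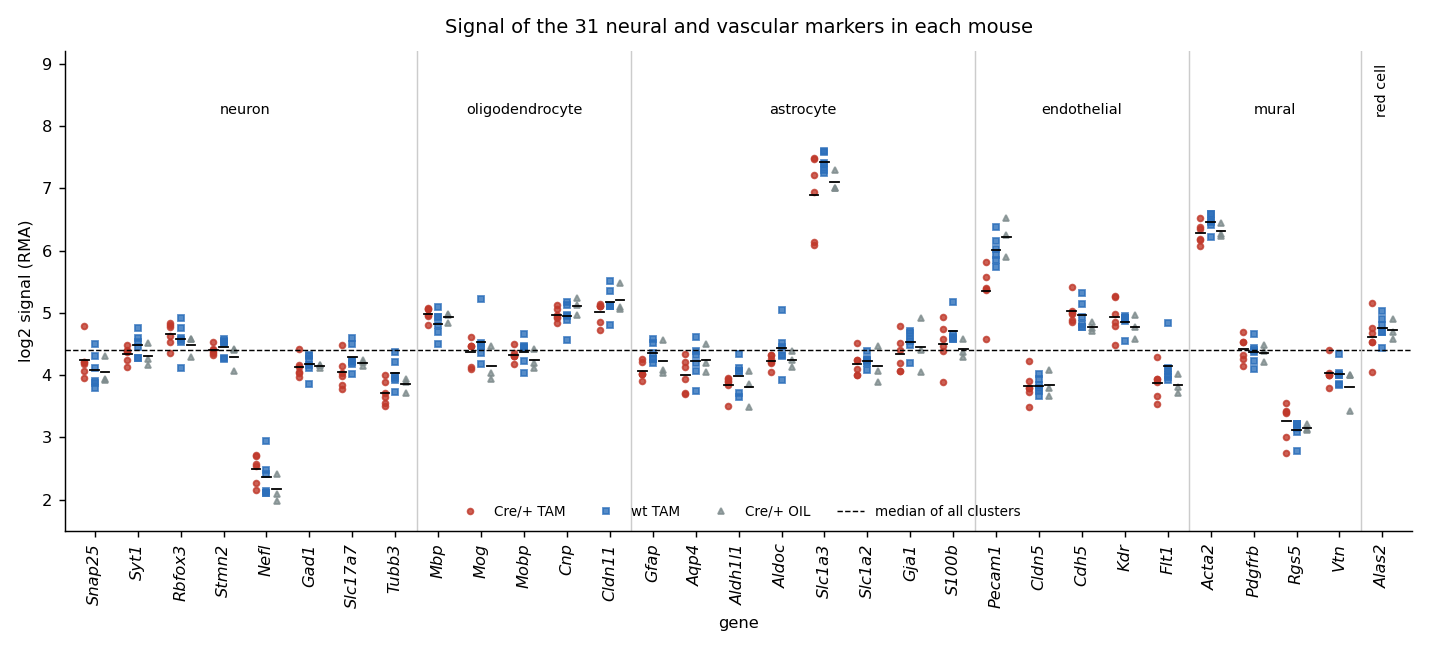
Log2 signal (vertical axis) of each of the 31 markers (horizontal axis, by cell class) in every mouse. Points are mice, short bars are group means and the dashed line is the median of all clusters (4.40). Most markers lie near that line in all groups, with *Slc1a3*, *Acta2* and *Pecam1* above it and *Nefl* and *Rgs5* below it.

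None of the 8 neuron markers was called. They span the synapse (*Snap25*, *Syt1*), the transmitter phenotype (*Slc17a7*, the vesicular glutamate transporter, and *Gad1*, the GABA-making enzyme), the nucleus (*Rbfox3*) and the cytoskeleton (*Stmn2*, *Nefl*, *Tubb3*). *Stmn2*, a microtubule regulator of growing axons, had the smallest spread of the class, with 4.32 at the lowest, 4.39 at the median and 4.54 at the highest in Cre/+ TAM, and 4.26, 4.52 and 4.58 in wt TAM. The Cre/+ OIL mice had 4.41, 4.07 and 4.40, so the groups overlapped. *Snap25*, a SNARE protein of synaptic vesicle release, had the widest spread, with 3.95, 4.20 and 4.79 (lowest, median, highest) in Cre/+ TAM, 3.79, 4.01 and 4.50 in wt TAM, and 3.92, 4.31 and 3.94 in the Cre/+ OIL mice. Its high end came from Cre/+ TAM mouse P098_19, while the other Cre/+ TAM mice stayed at or below 4.21.

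*Tubb3*, the neuronal beta-tubulin, was the neuron marker with the lowest p. It had 3.50, 3.68 and 4.00 (lowest, median, highest) in Cre/+ TAM, 3.73, 3.97 and 4.37 in wt TAM, and 3.90, 3.94 and 3.71 in the Cre/+ OIL mice. In 4 of 6 Cre/+ TAM mice it was below every wt TAM mouse. The difference against wt TAM was -0.31 (SE 0.12, unadjusted p = 0.0166, limma adjusted p = 0.705), and against Cre/+ OIL it was -0.13 (SE 0.14). The remaining neuron markers differed between Cre/+ TAM and wt TAM by -0.24 (*Slc17a7*) to 0.15 (*Snap25*), with 3 of all 8 above 0.

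Oligodendrocyte markers, which encode myelin components, likewise gave no call. *Mbp*, a main protein of compact myelin, had the smallest spread, with 4.81, 5.01 and 5.08 (lowest, median, highest) in Cre/+ TAM and 4.51, 4.87 and 5.10 in wt TAM, and 4.97, 4.84 and 4.97 in the Cre/+ OIL mice. Its differences were 0.16 (SE 0.10) against wt TAM and 0.06 (SE 0.12) against Cre/+ OIL. *Mog*, a glycoprotein of the outer myelin surface, had the widest spread. It had 4.10, 4.46 and 4.60 in Cre/+ TAM, 4.18, 4.46 and 5.23 in wt TAM, and 4.46, 4.04 and 3.94 in the Cre/+ OIL mice. The 5.23 was that of wt TAM mouse P098_13, with the other wt TAM mice at 4.52 or below. *Mog* had the largest difference of any marker between wt TAM and Cre/+ OIL, 0.39 (SE 0.19, unadjusted p = 0.057, limma adjusted p = 0.933).

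All 8 astrocyte markers had a lower mean in Cre/+ TAM than in wt TAM, by 0.05 (*Slc1a2*, a glutamate transporter) to 0.53 (*Slc1a3*), with a median difference of -0.20. Over all clusters 55.2% of differences were below 0 and the median was -0.02. Against Cre/+ OIL 5 of the 8 were below 0, with a median of -0.07. *Gfap*, the astrocyte intermediate filament, had 3.91, 4.02 and 4.26 (lowest, median, highest) in Cre/+ TAM and 4.20, 4.31 and 4.58 in wt TAM. The Cre/+ OIL mice had 4.03, 4.09 and 4.56. In 4 of 6 Cre/+ TAM mice *Gfap* was below every wt TAM mouse, and the difference was -0.29 (SE 0.11, unadjusted p = 0.0158, limma adjusted p = 0.693). Its group means were 4.07 ± 0.14 in Cre/+ TAM and 4.36 ± 0.15 in wt TAM (SD, n = 6 each).

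*Slc1a3* encodes the glutamate transporter GLAST and is used as an astrocyte marker, although microglia have also been described to express it. Its cluster reads chromosome 15 from 8634124 to 8710807 on the minus strand (GRCm38). Cre/+ TAM mice P098_07 and P098_09 had 6.08 and 6.13, and Cre/+ TAM mice P098_14, P098_16, P098_18 and P098_19 had 7.48, 7.21, 7.47 and 6.94. The wt TAM mice P098_11, P098_06 and P098_10 had 7.59, 7.40 and 7.24, and the wt TAM mice P098_13, P098_15 and P098_17 had 7.59, 7.29 and 7.38. The Cre/+ OIL mice P098_04, P098_05 and P098_08 had 7.29, 7.01 and 7.01. P098_07 and P098_09 stood apart, below every other mouse. Of the other Cre/+ TAM mice, P098_19 (6.94) was also below every control mouse. *Slc1a3* was below every wt TAM mouse in 4 of 6 Cre/+ TAM mice. Against Cre/+ OIL, 3 of 6 were below and 2 of 6 above every mouse of that group.

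The difference of *Slc1a3* was -0.53 against wt TAM (SE 0.22, unadjusted p = 0.0254, limma adjusted p = 0.764) and -0.22 against Cre/+ OIL (SE 0.27, limma adjusted p = 0.953). Within the lower range of animal numbers alone it was -1.31 against wt TAM, a limma adjusted p of 0.0173 that rests on 2 Cre/+ TAM mice, and -0.997 against Cre/+ OIL (limma adjusted p = 0.0520). Within the upper range it was -0.14 against wt TAM (limma adjusted p = 0.939). The change of the difference between ranges, upper minus lower, was 1.16 (SE 0.24, unadjusted p = 0.000268) and did not pass adjustment over all clusters (limma adjusted p = 0.142). The corresponding changes of the other 7 astrocyte markers lay between -0.54 (*S100b*) and 0.45 (*Aqp4*), with limma adjusted p of 0.868 or more. The grouping by animal number was prompted by values seen before, and the adjustment does not correct for that choice.

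The same 2 mice had the highest border-associated macrophage list (8 genes, used as markers of macrophages of the meninges and vessels). The mean of this list was 7.28 in mouse P098_07 and 5.65 in mouse P098_09, against 4.54 to 4.79 in the other Cre/+ TAM mice, 3.95 to 4.15 in wt TAM and 3.82 to 4.02 in Cre/+ OIL. Every Cre/+ TAM mouse was thus above every control mouse. The list includes *Mrc1*, *Pf4* and *Ms4a7*, which the study's text reports as increased in microglia lacking *Tgfbr2*. Whether the list reads other macrophages or a change within microglia was not tested. Of its 8 genes none was called by limma. At an unadjusted p under 0.05, 3 were higher against wt TAM, as were 2.92% of all clusters, and 4 were higher against Cre/+ OIL, as were 2.93% of all clusters. The microglia list was lowest of the Cre/+ TAM mice in P098_07 (9.86) and next lowest in P098_09 (10.25). The value of P098_09 lay within the range of the control mice (10.02 to 10.42 in wt TAM, 10.13 to 10.42 in Cre/+ OIL). The part of these lists in the *Slc1a3* result was not tested. Without mice P098_07 and P098_09 the *Slc1a3* difference was -0.14 against wt TAM (limma adjusted p = 1.00).

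*Pecam1* was the endothelial marker that differed most from the others of its class. It encodes CD31, an adhesion molecule of endothelial cells that leukocytes and platelets carry as well, and its cluster reads chromosome 11 from 106654217 to 106750628 on the minus strand (GRCm38). Cre/+ TAM mice P098_07 and P098_09 had 4.59 and 5.36, and Cre/+ TAM mice P098_14, P098_16, P098_18 and P098_19 had 5.40, 5.57, 5.82 and 5.39. The wt TAM mice P098_11, P098_06 and P098_10 had 6.15, 5.74 and 6.39, and the wt TAM mice P098_13, P098_15 and P098_17 had 5.84, 5.93 and 6.02. The Cre/+ OIL mice P098_04, P098_05 and P098_08 had 6.53, 6.25 and 5.89. All Cre/+ TAM mice were below all Cre/+ OIL mice, and 5 of 6 were below every wt TAM mouse. Between Cre/+ TAM and Cre/+ OIL the groups did not overlap, in either direction, for 2.89% of all clusters.

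The difference of *Pecam1* was -0.66 against wt TAM (SE 0.17, unadjusted p = 0.0015, limma adjusted p = 0.350) and -0.87 against Cre/+ OIL (SE 0.21, unadjusted p = 0.000774, limma adjusted p = 0.484), and neither was called. These comparisons share the Cre/+ TAM mice. Between wt TAM and Cre/+ OIL it was -0.21 (SE 0.21). Against wt TAM it was -1.12 in the lower range of animal numbers (limma adjusted p = 0.251) and -0.39 in the upper range (limma adjusted p = 0.919), so both ranges had the same sign. The change of the *Pecam1* difference between ranges, upper minus lower, was 0.73 (SE 0.30, limma unadjusted p = 0.0312, limma adjusted p = 0.756). Without mice P098_07 and P098_09 the difference against wt TAM was -0.47 (unadjusted p = 0.0068, limma adjusted p = 0.850). The neutrophil list (6 genes) averaged 6.28 in wt TAM mouse P098_10 and 6.87 in Cre/+ OIL mouse P098_08, against 3.33 to 4.28 in all other mice, and these 2 mice held the highest *Pecam1* of wt TAM and the lowest of Cre/+ OIL.

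**Figure D2:**
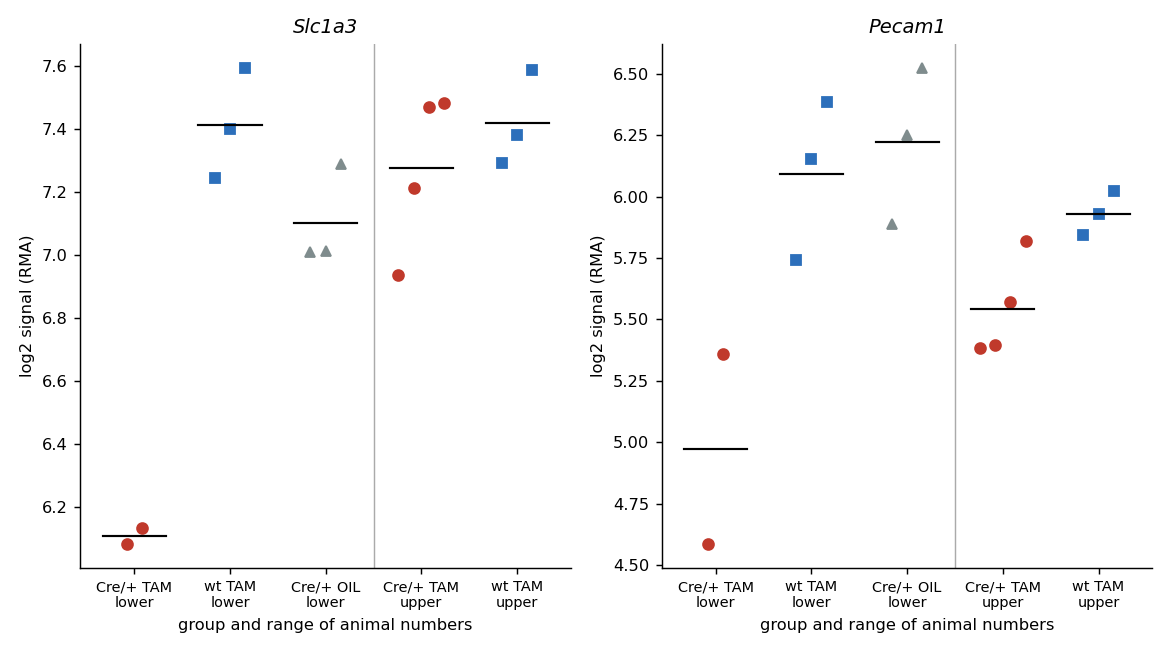
Log2 signal (vertical axes, not starting at 0) of *Slc1a3* and *Pecam1* in each mouse, by group and by lower or upper range of animal numbers, with bars at the means. *Slc1a3* is lowest in the 2 Cre/+ TAM mice of the lower range (6.08 and 6.13). Mouse P098_19 of the upper range (6.94) also lies below every control mouse. Means of both genes are lower in Cre/+ TAM than in wt TAM in both ranges.

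The other 4 endothelial markers had differences against wt TAM between -0.27 and 0.09, and none was called. *Cldn5*, a tight junction protein of the blood-brain barrier, had 3.49, 3.79 and 4.23 (lowest, median, highest) in Cre/+ TAM, 3.66, 3.82 and 4.02 in wt TAM, and 4.08, 3.79 and 3.66 in the Cre/+ OIL mice. Its difference against wt TAM was -0.01 (SE 0.12, 95% interval -0.25 to 0.24), and against Cre/+ OIL it was -0.02 (SE 0.14, 95% interval -0.32 to 0.28). *Cdh5*, the endothelial adherens junction cadherin, had 4.86, 4.98 and 5.42 in Cre/+ TAM against 4.85, 4.75 and 4.72 in the Cre/+ OIL mice. These groups did not overlap, as for 2.89% of all clusters, with Cre/+ TAM higher by 0.25 (SE 0.14, limma adjusted p = 0.875). *Kdr* and *Flt1*, receptors of vascular endothelial growth factor, differed from wt TAM by 0.09 (SE 0.13) and -0.27 (SE 0.15), *Flt1* being below every wt TAM mouse in 3 of 6 Cre/+ TAM mice.

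Mural cell markers gave no call either. *Acta2*, smooth muscle actin, had the smallest spread, with 6.07, 6.26 and 6.53 (lowest, median, highest) in Cre/+ TAM, 6.21, 6.47 and 6.59 in wt TAM, and 6.44, 6.26 and 6.24 in the Cre/+ OIL mice. Its difference against wt TAM was -0.18 (SE 0.10) with 3 of 6 Cre/+ TAM mice below every wt TAM mouse. *Rgs5* had the widest spread, with 2.75, 3.40 and 3.56 in Cre/+ TAM, 2.78, 3.18 and 3.22 in wt TAM, and 3.11, 3.14 and 3.22 in the Cre/+ OIL mice. It differed from wt TAM by 0.15 (SE 0.13). *Acta2* and *Tubb3* belong to families of closely related genes, and cross-hybridisation of their probes was not checked.

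*Alas2*, the red cell enzyme that starts heme synthesis, had 4.05, 4.61 and 5.15 (lowest, median, highest) in Cre/+ TAM, 4.44, 4.75 and 5.02 in wt TAM, and 4.90, 4.69 and 4.58 in the Cre/+ OIL mice. The groups overlapped, with differences of -0.14 (SE 0.15) against wt TAM and -0.11 (SE 0.18) against Cre/+ OIL.

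Counted over the whole set, 0 of 31 markers were called between Cre/+ TAM and wt TAM, against 0.0246% of all 32471 clusters tested. At an unadjusted p under 0.05, 4 of 31 were lower (*Pecam1*, *Gfap*, *Tubb3*, *Slc1a3*) and 0 higher, where 2.91% of all clusters were lower at that p. The groups did not overlap for 0 of 31 markers and for 0.465% of all clusters. The median difference of the markers was -0.14, beside -0.02 over all clusters, and 21 of 31 were below 0. For 30 of 31 the 95% interval lay within a 2-fold change in either direction, as it did for 98.1% of all clusters, with *Pecam1* as the exception.

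Between Cre/+ TAM and Cre/+ OIL, 0 of 31 were called (0% of all clusters), and *Pecam1* alone was lower at an unadjusted p under 0.05, where 2.91% of all clusters were. Groups did not overlap for 2 of 31 markers, *Pecam1* lower and *Cdh5* higher, and for 2.89% of all clusters. The median difference was 0.03, beside -0.005 over all clusters, with 14 of 31 below 0. The 95% interval lay within a 2-fold change for 30 of 31, again all but *Pecam1*.

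Between the control groups, wt TAM and Cre/+ OIL, 0 of 31 were called (0% of all clusters), 0 of 31 had an unadjusted p under 0.05 (5.22% of all clusters), and groups did not overlap for 0 of 31 (1.95% of all clusters). Here 24 of 31 markers were higher in wt TAM, including all 8 neuron and 7 of 8 astrocyte markers. All Cre/+ OIL mice were of the lower range of animal numbers, while 3 wt TAM mice were of the upper range. Group and range are thus partly confounded in this comparison. The upper range includes wt TAM mouse P098_13, which had the highest array median (4.55). Below 0 were 7 of 31 markers (22.6%), beside 48.1% of all clusters. The median difference was 0.09, beside 0.008 over all clusters, and every 95% interval lay within a 2-fold change.

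**Figure D3:**
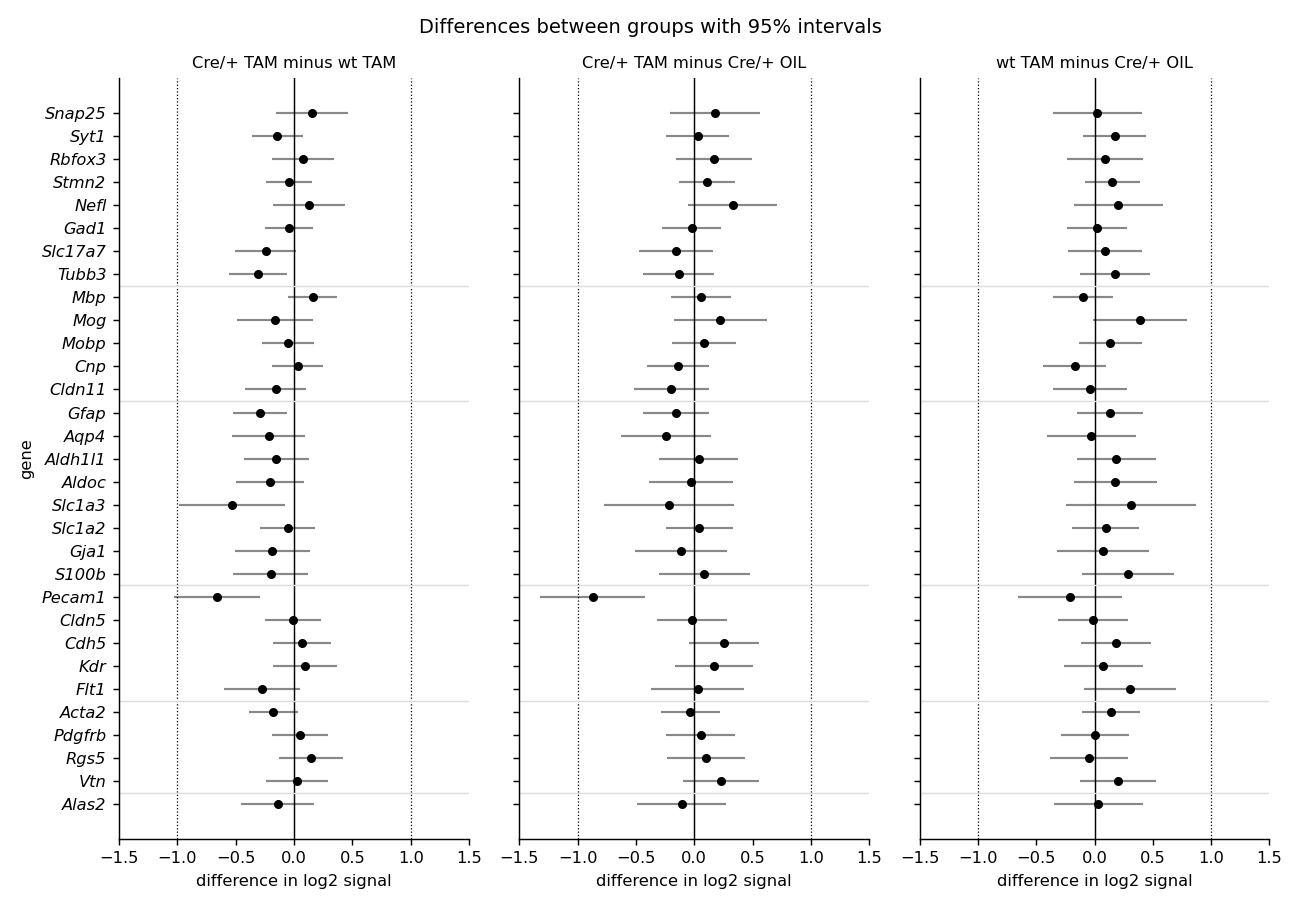
Difference in log2 signal (horizontal axes) of each marker for the 3 comparisons, with 95% intervals from the limma fit as lines and dotted lines at a 2-fold change. Only the intervals of *Pecam1* in the panels against wt TAM and Cre/+ OIL reach past the dotted lines.

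The signals were also averaged by class in each mouse. The neuron mean was 4.00 ± 0.09 in Cre/+ TAM, 4.06 ± 0.13 in wt TAM and 3.94 ± 0.04 in Cre/+ OIL, with the SD over 6, 6 and 3 mice. The oligodendrocyte mean was 4.73 ± 0.06 in Cre/+ TAM, 4.77 ± 0.11 in wt TAM and 4.73 ± 0.08 in Cre/+ OIL. The astrocyte mean was 4.51 ± 0.13 in Cre/+ TAM, 4.74 ± 0.08 in wt TAM and 4.58 ± 0.10 in Cre/+ OIL. The endothelial mean was 4.60 ± 0.13 in Cre/+ TAM, 4.76 ± 0.09 in wt TAM and 4.69 ± 0.07 in Cre/+ OIL, and the mural mean was 4.50 ± 0.16 in Cre/+ TAM, 4.49 ± 0.12 in wt TAM and 4.41 ± 0.07 in Cre/+ OIL. Without *Pecam1* the mean of the other 4 endothelial markers was 4.42 ± 0.11 in Cre/+ TAM, 4.45 ± 0.13 in wt TAM and 4.31 ± 0.02 in Cre/+ OIL, and without *Slc1a3* that of the other 7 astrocyte markers was 4.17 ± 0.11 in Cre/+ TAM, 4.35 ± 0.08 in wt TAM and 4.22 ± 0.10 in Cre/+ OIL, both sets of means being added after the values were seen. From the lowest to the highest of 15 mice a class mean spanned 0.33 (oligodendrocyte) to 0.49 (astrocyte). The neutrophil list spanned 3.53, the border-associated macrophage list 3.46, the monocyte list 1.01, the choroid plexus and ependyma list 0.88 and the microglia list 0.56.

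**Figure D4:**
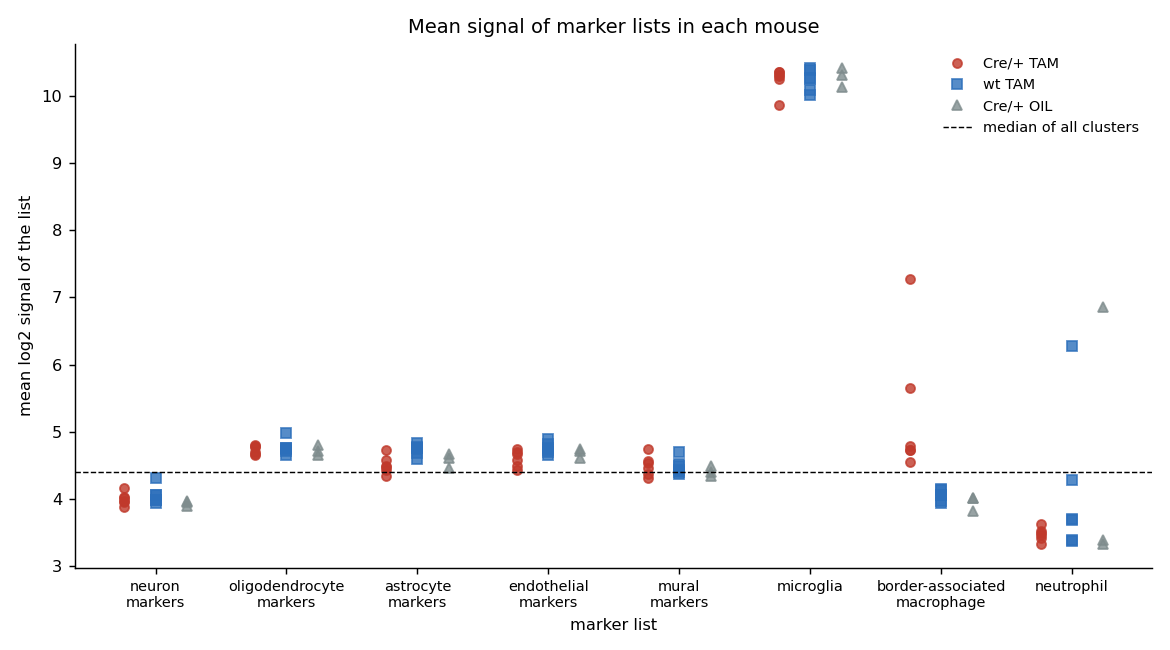
Mean log2 signal (vertical axis) of the 5 marker classes and of the microglia, border-associated macrophage and neutrophil lists in each mouse, each point being 1 mouse. The 5 classes span at most 0.49 across mice, while the border-associated macrophage list reaches 7.28 in 1 Cre/+ TAM mouse and the neutrophil list 6.28 and 6.87 in 1 wt TAM and 1 Cre/+ OIL mouse.

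Pairs of markers were correlated to a similar degree within a class and between classes. After subtraction of group means, the median Pearson correlation over the 15 arrays was 0.12 for the 82 pairs within a class and 0.13 for the 383 pairs between classes. By class it was 0.18 for neuron, 0.02 for oligodendrocyte, 0.05 for astrocyte, 0.00 for endothelial and 0.30 for mural markers. The same measure was 0.85 for the neutrophil, 0.77 for the border-associated macrophage and 0.69 for the microglia list. These correlations are descriptions, since the arrays share normalization and the pairs share genes. The genes whose deviations were most like the class means were in none of the marker lists, the closest being *Ubap1l* and *Olfr571* for neuron (r = 0.93 and 0.92), *Ccdc27* for oligodendrocyte (r = 0.94), *Gm13524* for astrocyte (r = 0.93), *Ppp3r2* for endothelial (r = 0.88) and *Gm8815* for mural markers (r = 0.95), over 15 arrays and 30853 genes. They were picked as the highest of these genes, so their size is no test of likeness.

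Second lists of the same cell types, 52 genes that are no members, gave no limma call in any comparison. At an unadjusted p under 0.05 there were 4 of 52 for Cre/+ TAM minus wt TAM (5.83% of all clusters), 1 of 52 for Cre/+ TAM minus Cre/+ OIL (5.84%) and 3 of 52 for wt TAM minus Cre/+ OIL (5.22%). Between Cre/+ TAM and wt TAM their median differences were -0.01 (neuron, 12 genes), -0.05 (oligodendrocyte, 10 genes), -0.05 (astrocyte, 10 genes), -0.01 (endothelial, 10 genes) and -0.07 (mural, 10 genes). The second astrocyte list had 7 of 10 genes below 0 and 0 of 10 at an unadjusted p under 0.05. The second endothelial list was above 0 for 9 of 10 genes in both Cre/+ TAM and wt TAM against Cre/+ OIL, with medians of 0.18 and 0.20, in comparisons that share the Cre/+ OIL mice. Within these lists the median correlation lay between -0.03 and 0.09. With the mean of the member class, the median correlation of the second list was 0.17 (neuron), 0.38 (oligodendrocyte), 0.17 (astrocyte), 0.09 (endothelial) and 0.19 (mural). Over all genes it was 0.07, 0.06, 0.03, 0.07 and 0.04, in the same order. Single genes of the second lists lay between -0.51 and 0.72. No gene of the oligodendrocyte precursor, choroid plexus and ependyma, second red cell, monocyte, neutrophil or lymphocyte lists was called by limma either.

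Some mice did hold more of the highest values than others. Of the wt TAM mice, P098_13 had the highest signal for 16 of 31 markers, where it had the highest of wt TAM for 28.6% of all genes. Of the 26 markers near the median cluster it held the highest for 14, beside 38.0% of the 12771 genes in that range. The second lists gave 19 of 52 in this mouse. With each array centred on its own median it held 11 of 31, beside 17.2% of all genes. Its class means were the highest of wt TAM in all 5 classes (neuron 4.31, oligodendrocyte 4.98, astrocyte 4.84, endothelial 4.89, mural 4.71). It did not hold the highest value for all: *Cnp*, *Aqp4*, *Aldh1l1* and *Kdr* were lowest of wt TAM in this mouse. The wt TAM mouse P098_10 was lowest of its group for 13 of 31 markers, beside 17.6% of all genes. Of the Cre/+ TAM mice, P098_14 was highest for 14 of 31 markers, beside 18.1% of all genes, and for 12 of 31 after centring, beside 12.2%. The high median of mouse P098_13 stands beside its counts, and its part in them beyond centring was not tested.

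**Figure D5:**
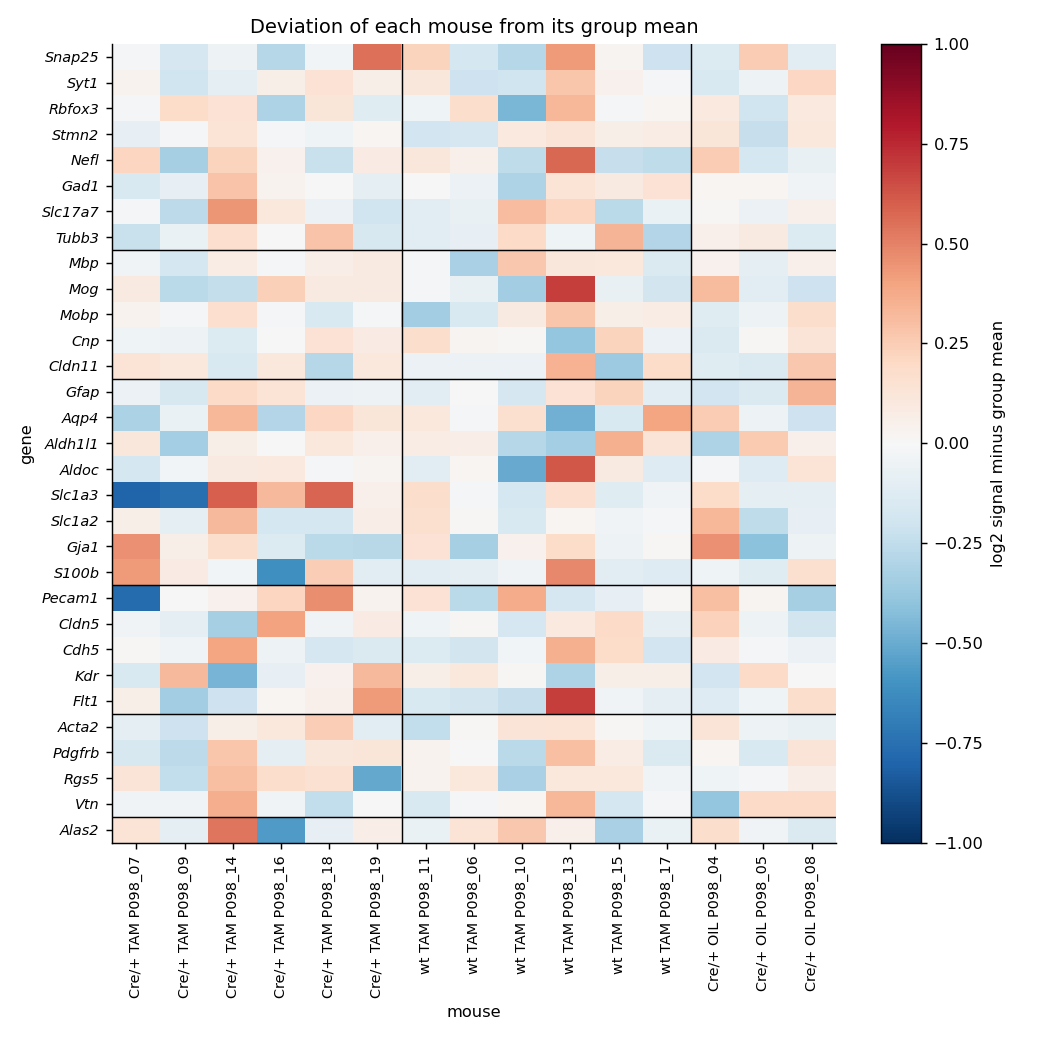
Log2 signal of each marker (rows, by class) in each mouse (columns, by group) minus the mean of its group, with colour from -1 (blue) to 1 (red). The low *Slc1a3* of Cre/+ TAM mice P098_07 and P098_09, the low *Pecam1* of mouse P098_07 and the mostly red columns of Cre/+ TAM mouse P098_14 and wt TAM mouse P098_13 stand out.

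Within groups, the markers were as variable as other clusters. The median SD was 0.22 for the 31 markers and 0.22 for all clusters, and 16 of 31 were above the median of all. The largest SD was that of *Slc1a3* (0.43) and the smallest that of *Stmn2* (0.13). For 8 of 31 markers, 3 or more arrays held an identical signal to 4 decimals, as did 22.3% of all clusters. *Vtn*, a secreted protein of pericytes, had 4.00 in 7 of 15 mice, and *Mog* and *Cldn11* had 4.46 and 5.11 in 6 mice each.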

How the data were processed

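RNA of sorted microglia from 15 mice was amplified, labelled and hybridised by the authors, who deposited log2 signals normalized by RMA (robust multi-array average: background correction, quantile normalization, probe summary), the software being not given in the sources used here. This scaling aligns arrays, so a shift common to all genes is not seen, and it pulls low signals together. Arrays have no read depth, and precision is limited by how many there are. The study's text names RNA sequencing, while its methods and the files are arrays. Columns of the authors' own comparisons hold fold changes and p-values and were not used. The deposited annotation names GRCm38 in 8425 descriptions.

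Of 34390 clusters, 32471 with a symbol were tested (1919 had none, and 128 had several). lmFit and eBayes of limma 3.58.1 in R 4.3.3 estimated 1 mean for each group over the 15 arrays together, 3 contrasts were tested two-sided, and p-values were Benjamini-Hochberg adjusted over all tested clusters. Simulated data in which 200 clusters changed were used to test the fit. Class means and correlations are descriptions without p. Members and lists were chosen with earlier results of these data known. Named in full were, by a fixed rule, the member with the largest and the smallest SD in each class, members with an unadjusted p under 0.05, and *Alas2*. Alternatives were centring, quantile normalization, a second deposited table, filters, other fits, the methods' t-test and leaving out arrays, 3 of which carry an unexplained neg in their titles. The grouping by animal number was prompted by the values seen before. Where nothing says otherwise each array is 1 mouse. The limma p-values set each difference against a spread between mice that is pooled over the groups and moderated by eBayes across clusters.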

Additional observations from a re-analysis of the deposited data

Results flagged for a closer look

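A group of 6 mice was marked where its highest or lowest mouse lay far from the nearest other relative to the whole range, and chance marks about 1 in 20 groups. Of 62 groups of member genes 9 were marked, and of 98 groups in all, class and list means included, 15.

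In wt TAM, mouse P098_13 stood apart high for *Mog* (5.23, the others 4.18 to 4.52), *S100b*, a calcium-binding protein of astrocytes (5.18, the others 4.57 to 4.67), and *Flt1* (4.84, the others 3.92 to 4.11), and low for *Kdr* (4.54, the others 4.86 to 4.96). The same mouse stood apart high for the neuron mean (4.31, the others 3.94 to 4.06), the oligodendrocyte mean (4.98, the others 4.66 to 4.76) and the lymphocyte mean (4.36, the others 4.05 to 4.14). Mouse P098_10 stood apart low for *Rgs5* (2.78, the others 3.08 to 3.22) and high for the neutrophil mean (6.28, the others 3.37 to 4.28).

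In Cre/+ TAM, *Snap25* was high in mouse P098_19 (4.79, the others 3.95 to 4.21), *Cdh5* was high in mouse P098_14 (5.42, the others 4.86 to 5.03), *Aldh1l1*, a folate enzyme of astrocytes, was low in mouse P098_09 (3.50, the others 3.85 to 3.96) and *Pecam1* was low in mouse P098_07 (4.59, the others 5.36 to 5.82). Mouse P098_07 also had the lowest microglia mean (9.86, the others 10.25 to 10.36) and the highest mean of the second oligodendrocyte list (4.79, the others 4.58 to 4.60).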

How the results depend on the processing

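No member call was gained or lost in 2857 refitted member differences under the alternatives, except that *Slc1a3* passed against wt TAM in the lower range of animal numbers alone (-1.31, limma adjusted p = 0.0173), where the members called were 1. That grouping was prompted by values seen before. The sign was kept in 2704 of the refitted differences. The methods' t-test called 0 of 31 members in each comparison after Benjamini-Hochberg, with 3, 1 and 1 at an unadjusted p under 0.05. Class means moved by less than the SD between mice in 455 of 455. The count of all clusters called between Cre/+ TAM and wt TAM was 8, but 3 without the arrays with neg in their titles, 51 with the range of animal numbers as a block, 87 in the lower range alone, 3 in the upper range alone, 1 with the methods' t-test after Benjamini-Hochberg, and 2 to 15 with single mice left out. Added after seeing the data, it was 16 without Cre/+ TAM mice P098_07 and P098_09 and 14 without these and wt TAM mouse P098_13. Between Cre/+ TAM and Cre/+ OIL it was 0, but 6 without the arrays with neg, 21 with the block, 84 in the lower range alone, 0 to 3 with single mice left out, and 3 and 4 in the added settings. Between wt TAM and Cre/+ OIL it was 0, and 3 without the arrays with neg. Without the arrays with neg, P098_08 was the only Cre/+ OIL mouse left, and its neutrophil list averaged 6.87. The counts against Cre/+ OIL in that setting therefore rest on 1 Cre/+ OIL mouse. They cannot separate that mouse from its group, and no conclusion is drawn from them. The count of clusters whose difference changed between ranges was 19, and 5 to 182 with single mice left out, the 182 without mouse P098_09. The cause was not tested. No paired analysis was possible because the labels, which name littermates as controls, do not give the litter of any mouse, and no replicate number is shared between groups.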
